A study of Homo sapiens with 12 samples.

Results

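The genes described here encode the machinery that sorts membrane proteins into intraluminal vesicles and exosomes. They were chosen by symbol: the numbered CHMP, VPS and TSPAN genes, the tetraspanins CD9, CD63, CD81, CD82 and CD151, and TSG101, PDCD6IP, HGS, STAM, STAM2, SDCBP and SMPD3. Membership was decided by symbol, not by a measured value. It found 77 genes among the 26334 gene symbols of the count table, and 67 of them reached the mean of at least 10 counts per library needed for testing. RNA was measured by poly(A)-selected RNA-Seq in shA673-1c cells, a derivative of the established Ewing sarcoma line A673. The labels mark every library CTL and describe the cells no further. The cells were kept in high-glucose DMEM with serum, blasticidin and zeocin, and all of them received 5 µM actinomycin D, for 0, 1, 2 or 4 h, with 3 biological replicates at each time and 12 libraries in all. Actinomycin D blocks RNA synthesis, so the series asks how quickly each transcript is lost once no new copies are made. No vehicle-treated time course was analysed here, so the hours in culture and the hours of drug cannot be told apart.

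The endosomal sorting complexes required for transport (ESCRT) act in sequence on the endosome membrane. ESCRT-0 and ESCRT-I gather ubiquitylated cargo, ESCRT-II connects them to ESCRT-III, and the CHMP subunits of ESCRT-III form filaments that cut the vesicle neck before the VPS4 ATPases take the filaments apart. Most other VPS proteins tether or recycle endosomes rather than form vesicles, and tetraspanins are small proteins with several membrane passes that organize membrane domains and are abundant on extracellular vesicles, where CD9, CD63 and CD81 serve as standard markers.

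Libraries held 9147018 to 11194705 counts, of which the 77 genes made up 0.467% to 0.517%. The Ewing sarcoma markers that were looked up summed to between 18295 and 24614 counts per library with 6 of 7 at 10 counts or more. CCND1 made up most of that sum, at 15630 to 20886 counts. The other markers detected ranged from a low of 7 counts for NKX2-2 to a high of 1789 for PRKCB. CD99 was listed at 0, as were all 9 pseudoautosomal genes looked up, so its 0 says nothing about the cells. Endothelial markers summed to 2 to 14 counts per library and blood cell markers to 0 to 3. Levels are given in CPM, the counts of a gene relative to the total of its library after that total was scaled by the trimmed mean of M-values (TMM). The change over time is given as a slope in log2 units per hour, fitted by edgeR's quasi-likelihood test with p-values adjusted over all 12032 tested genes, and a gene was said to rise or fall where the adjusted p was under 0.05. A rise on this scale is a rise relative to the average transcript. Scaling to GAPDH plus ACTB moved the median slope of all genes from 0.0093 to -0.13, a shift of -0.14 per hour, and the vesicle genes moved with it. Under both scalings their median slope lay 0.046 per hour above that of all genes. That difference could hardly change, since a scaling shifts all slopes by nearly the same value.

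Of the 67 tested vesicle genes, 12 fell (17.9%) and 32 rose (47.8%), against 32.1% and 30.7% of all tested genes. The other 23 passed the threshold in neither direction. The direct comparison of 4 h with 0 h called 13 lower, against a background of 31.6%, and 29 higher, against 28.7%. It added VPS54 to the genes that were lower and left VPS13B, TSPAN11 and TSPAN13 short of the threshold among the higher. With the replicate numbers as blocks 15 were lower and 33 higher, beside 4328 and 4429 of all 12032 genes. VPS13B (adjusted p = 0.0118), TSPAN11 (7.48e-05), TSPAN13 (6.79e-10) and CHMP4B (0.00314) joined the higher, and VPS4B (0.0193) and TSPAN2 (0.00752) the lower. All 12 falls were called under each of 4 scalings: TMM, library totals, DESeq2 size factors, and GAPDH plus ACTB. The share of all genes that fell under all 4 was 32.0%. This does not test the falls, since the alternatives to TMM lowered slopes or hardly moved them. The median slope of all genes shifted by -0.039 with library totals, 4.8e-05 with DESeq2 size factors and -0.14 with GAPDH plus ACTB. Such shifts could hardly remove a fall but could remove a rise, and the rises depended on the scaling. With library totals 24 of 67 genes rose, beside 2242 of all 12032. With GAPDH plus ACTB 2 rose and 34 fell, beside 112 and 7729 of all 12032. Only CD151 and TSPAN4 rose under all 4 scalings, against 0.931% of all genes. The fitted slopes ranged from -0.44 for VPS18 to 0.21 for TSPAN4, and each complex held members at different slopes, as the plot of slopes by complex shows.

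**Figure D1:**
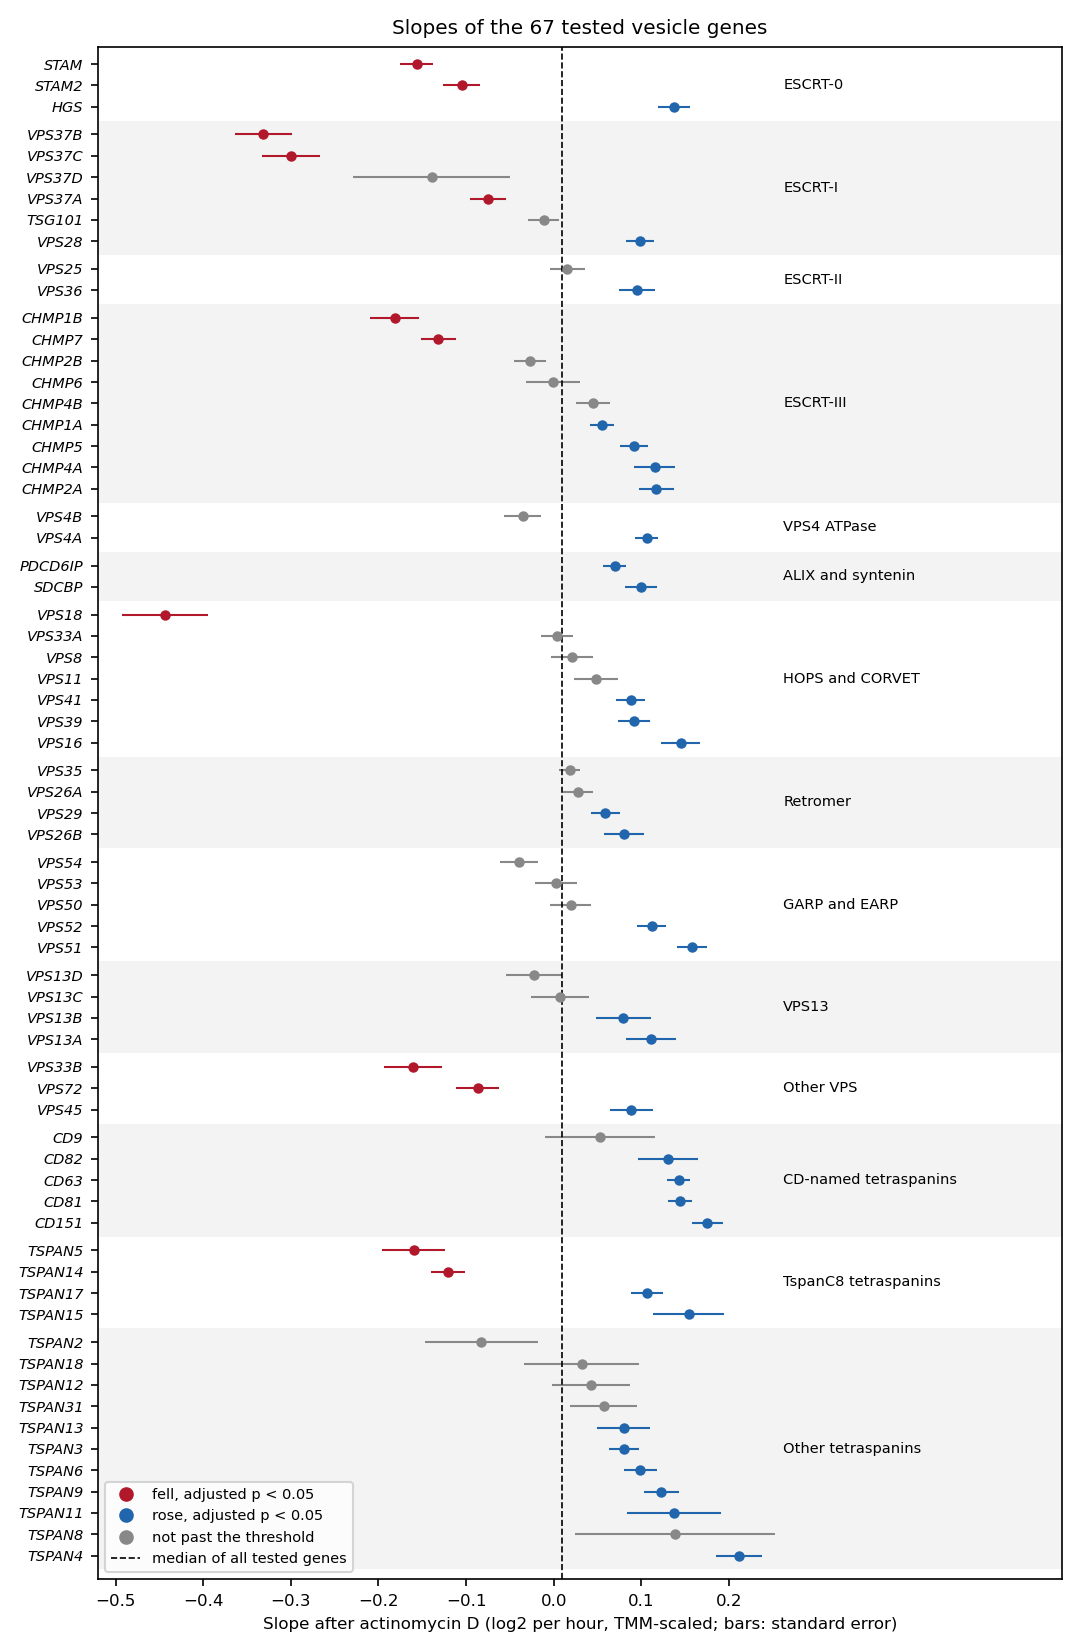
Slope over 4 h of actinomycin D for each of the 67 tested genes, in log2 per hour after TMM scaling, grouped by complex, with standard errors as bars. Red points fell (12 genes), blue points rose (32 genes, of which 2 also rose when scaled to GAPDH plus ACTB) and grey points did not pass the threshold; the dashed line is the median of all tested genes, 0.0093.

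Before treatment the tetraspanins held the top of the list once levels were divided by transcript length. CD63, the lysosomal and exosomal tetraspanin, had 322.5 ± 13.2 CPM per kb (SD, n = 3), and TSPAN13, a tetraspanin known as a regulator of voltage-gated calcium channels, had 280.0 ± 39.5. The gap between these 2 genes was close to the SD of TSPAN13. CD81, SDCBP and CD151 came next, at 99.3 ± 1.80, 98.1 ± 8.64 and 94.3 ± 5.92 CPM per kb, and these 3 also lay within each other's spread. The ESCRT-I subunit VPS28 (54.8 ± 3.21), the retromer subunit VPS29 (52.7 ± 1.82) and CHMP4B, the main filament-forming ESCRT-III subunit (51.4 ± 2.35), formed the next group. CD9 stood far lower than the other standard vesicle markers, at 4.16 ± 0.730 CPM per kb and place 55 of 77. Across the 67 tested genes the level per kb at 0 h and the slope had a Spearman rho of 0.24, given as a description since the same libraries enter both measures.

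**Figure D2:**
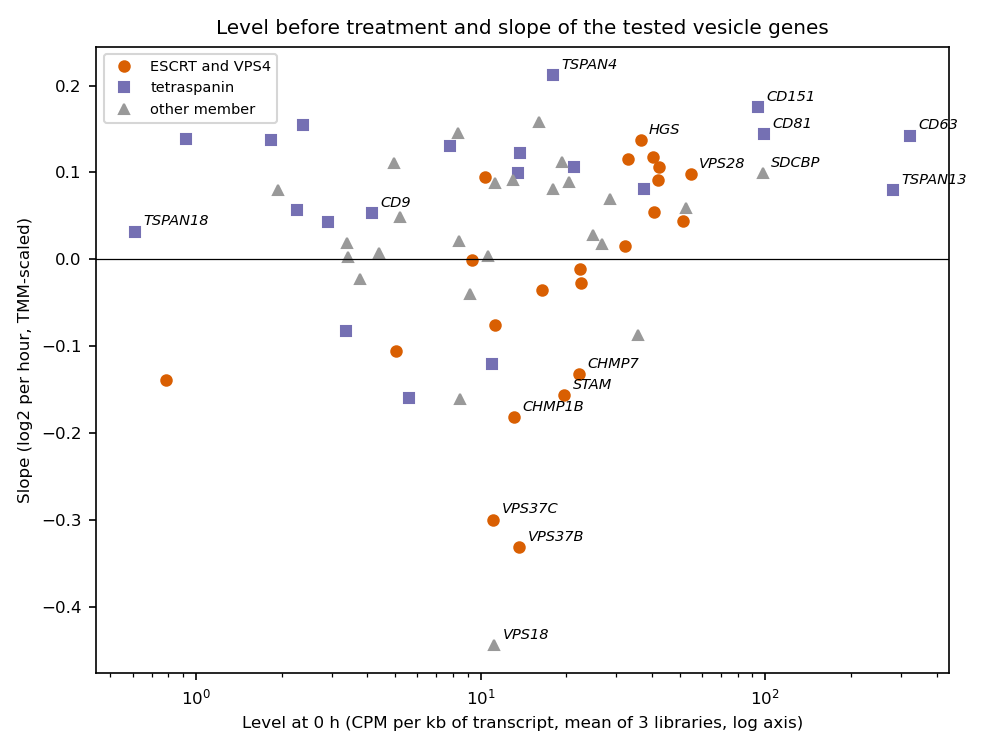
Level at 0 h in CPM per kb of transcript (mean of 3 libraries, log axis) against the slope in log2 per hour after TMM scaling, for the 67 tested genes. Tetraspanins are squares, ESCRT and VPS4 genes circles and other members triangles; VPS18, VPS37B and VPS37C lie lowest at levels between 11.1 and 13.7 CPM per kb, and CD63 lies far to the right with a slope of 0.14.

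The ESCRT-0 complex pairs HGS, which binds the endosomal lipid PI3P, with a STAM protein, and its transcripts moved in opposite directions. HGS stood at 110.9, 103.6 and 101.9 CPM in the 3 libraries at 0 h and at 166.4, 156.7 and 152.5 CPM at 4 h, with the values at 1 and 2 h in between. All 4 h libraries lay above all 0 h libraries, and the slope was 0.14 ± 0.018 (SE, adjusted p = 4.88e-06), falling to -0.00099 with GAPDH plus ACTB. STAM, the main STAM transcript here, went from 74.2, 79.9 and 73.3 CPM to 55.5, 48.7 and 43.8 CPM, a slope of -0.16 ± 0.019 (adjusted p = 2.04e-06). STAM2, its paralog, went from 25.9, 28.1 and 28.6 CPM to 20.0, 21.0 and 19.9 CPM, a slope of -0.11 ± 0.021 (adjusted p = 0.000432). Neither paralog's 4 h libraries reached its lowest 0 h library. The ratio of HGS to STAM counts within a library, which no scaling touches and which was chosen for display after its values were seen, was 1.49, 1.30 and 1.39 at 0 h and 3.00, 3.22 and 3.48 at 4 h.

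Sites for RNA-binding proteins were looked for in the 3' untranslated regions (3'UTRs) of canonical GENCODE version 44 transcripts on GRCh38, on the transcript strand only. The search used TATTTAT, the core of the AU-rich element recognized by decay factors of the TTP family, and TGTANATA, the site of the Pumilio proteins. The windows below show the matches in STAM and STAM2 because these paralogs fell while HGS, without a match to either motif, rose, and capitals mark the match.
STAM, Pumilio site 1: caaatgttaTGTACATAtattgatat
STAM, Pumilio site 2: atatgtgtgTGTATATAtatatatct
STAM2, AU-rich site 1: tatggattcTATTTATattaagacc
STAM2, AU-rich site 2: ttggtaattTATTTATaaaattact
STAM held only Pumilio matches and STAM2 only AU-rich matches. Among tested genes with a 3'UTR within 25% of the length of STAM's, 36.7% held a Pumilio match. For STAM2, 62.3% of 3'UTRs of like length held an AU-rich match. The 3'UTR of HGS is shorter, at 503 nt, where the shares were 15.6% for the AU-rich and 11.8% for the Pumilio motif. A match is a description of letters, not evidence of binding.

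ESCRT-I holds TSG101, VPS28, a VPS37 protein and MVB12 or UBAP1, and its variable VPS37 subunits had some of the steepest falls. VPS37B went from 38.6, 36.7 and 35.5 CPM at 0 h to 34.5, 35.3 and 31.9 at 1 h, 26.0, 22.6 and 18.7 at 2 h and 17.4, 14.3 and 15.0 at 4 h. At 4 h 42.1% of the 0 h level was left, and the slope was -0.33 ± 0.033 (adjusted p = 2.28e-07). VPS37C went from 30.2, 30.3 and 28.4 CPM at 0 h through 29.2, 33.2 and 26.7 at 1 h and 24.9, 22.1 and 21.1 at 2 h to 12.7, 13.5 and 14.1 CPM at 4 h, a slope of -0.30 ± 0.033 (adjusted p = 8.98e-07). VPS37C differed little between 0 and 1 h, while all 1 h libraries of VPS37B lay slightly below all its 0 h libraries. Both genes were lower at 2 and 4 h in every replicate. At these slopes the level would halve in 3.02 h for VPS37B and 3.34 h for VPS37C on the TMM scale, and in 2.13 and 2.29 h when scaled to GAPDH plus ACTB. VPS37A also fell, at -0.075 ± 0.021 (adjusted p = 0.0046), while VPS37D, present at 0.678 to 2.03 CPM, had a slope of -0.14 ± 0.090 and did not pass the threshold. With GAPDH plus ACTB VPS37D was called as falling.

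Neither of the constant ESCRT-I subunits fell on the TMM scale. TSG101, which binds the PTAP-type motifs of cargo adaptors and viral proteins, had 34.5, 35.0 and 33.7 CPM at 0 h and 35.2, 33.9 and 31.2 CPM at 4 h. Its time groups overlapped and its slope of -0.012 ± 0.018 did not pass the threshold (adjusted p = 0.592). However, TSG101 fell with library totals, at -0.051 (edgeR adjusted p = 0.0192), and with GAPDH plus ACTB, at -0.15. VPS28, which connects ESCRT-I to ESCRT-II, rose from 51.6, 55.2 and 49.1 CPM to 69.8, 69.3 and 69.4 CPM, a slope of 0.098 ± 0.016 (adjusted p = 5.77e-05) that was -0.039 with GAPDH plus ACTB. The ratio of VPS28 to VPS37B counts, again chosen after its values were seen, went from 1.34, 1.5 and 1.38 at 0 h to 4.00, 4.82 and 4.61 at 4 h. VPS37A, the shallowest of these falls, held 4 AU-rich matches and 1 Pumilio match in a 3'UTR of 3038 nt, not shown here. Of 3'UTRs within 25% of the lengths of VPS37A and VPS37C, 55.9% and 36.5% held an AU-rich match. The 3'UTR of VPS37B, steeper than VPS37C, held no match to either motif. That of VPS37C held the AU-rich match shown here, with the motif in capitals.
VPS37C, AU-rich site: ctcctaagtTATTTATaaagagaaa

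**Figure D3:**
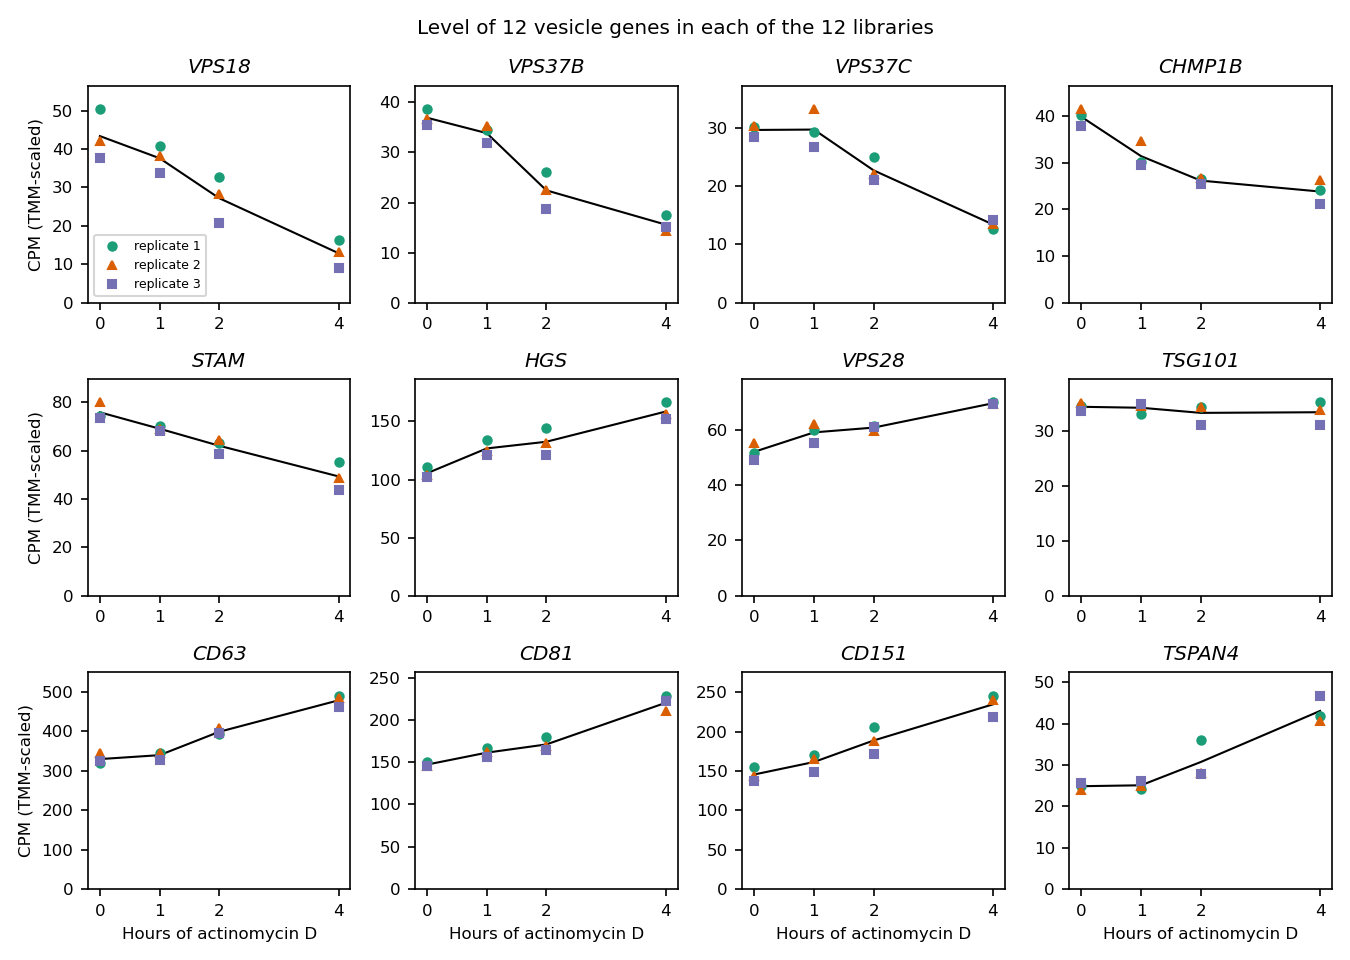
Level of 12 genes in CPM after TMM scaling against hours of actinomycin D, with a point for each library, a marker shape for each replicate number and a line through the time means; each axis starts at 0. VPS18, VPS37B, VPS37C, CHMP1B and STAM decline, TSG101 stays between 31.2 and 35.2 CPM, and HGS, VPS28, CD63, CD81, CD151 and TSPAN4 climb on this scale, of which CD151 and TSPAN4 also rose when scaled to GAPDH plus ACTB, where HGS and VPS28 had slopes just below 0.

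ESCRT-II was represented by 2 genes. VPS36, its ubiquitin-binding and lipid-binding subunit, rose at 0.095 ± 0.020 (adjusted p = 0.000696), and VPS25, which recruits CHMP6, had a slope of 0.016 ± 0.020 that did not pass the threshold. With GAPDH plus ACTB both slopes were negative, at -0.042 and -0.12.

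Among the ESCRT-III genes 9 of 11 were tested, of which 2 fell and 4 rose, beside 32.1% and 30.7% of all tested genes. CHMP1B, a late-acting subunit that also binds the microtubule-severing enzyme spastin, fell from 40.2, 41.5 and 37.8 CPM at 0 h to 30.1, 34.7 and 29.5 at 1 h, 26.4, 26.6 and 25.5 at 2 h and 24.2, 26.2 and 21.1 at 4 h. Its slope was -0.18 ± 0.028 (adjusted p = 2.78e-05). Most of the loss came by 2 h, unlike that of VPS37C, and all 1 h libraries were already below all 0 h libraries. CHMP1B is encoded by a gene with a single exon, with an antisense gene, CHMP1B-AS1, over part of it. CHMP7, the ESCRT-III subunit that recruits the complex to the reforming nuclear envelope, fell from 76.3, 79.0 and 72.0 CPM to 56.2, 53.2 and 49.2 CPM, a slope of -0.13 ± 0.020 (adjusted p = 2.5e-05). CHMP2A (0.12), CHMP4A (0.12), CHMP5 (0.092) and CHMP1A (0.055) rose on the TMM scale. With GAPDH plus ACTB the slopes of these 4 genes lay between -0.083 and -0.020.

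CHMP4B missed the threshold at 0.044 ± 0.019 (adjusted p = 0.0551) and passed it with the replicate number as a block (adjusted p = 0.00825). CHMP2B and CHMP6 passed in neither fit. CHMP3 and CHMP4C were below the count minimum, with 3 to 14 and 0 to 2 counts per library. Since CHMP3 shares exons with the readthrough gene RNF103-CHMP3, reads of CHMP3 may have been given to another symbol. Of the ATPases that end the cycle, VPS4A rose from 173.7, 171.4 and 178.3 CPM to 254.4, 219.8 and 225.2 CPM, a slope of 0.11 ± 0.013 (adjusted p = 2.96e-06; -0.033 with GAPDH plus ACTB). VPS4B had a slope of -0.035 ± 0.021 (adjusted p = 0.154) and fell once the replicate block was added (adjusted p = 0.025). Over all 22 tested ESCRT and VPS4 genes, 7 fell, 8 rose and 7 passed in neither direction, beside 32.1% falling and 30.7% rising among all tested genes. Their median slope was -0.0061 beside 0.0093 for all genes.

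The syntenin route to exosomes uses the adaptor syntenin, encoded by SDCBP, and ALIX, encoded by PDCD6IP, which links it to ESCRT-III. SDCBP stood at 190.8, 223.9 and 195.5 CPM at 0 h and at 262.8, 279.5 and 242.4 CPM at 4 h. PDCD6IP stood at 169.1, 165.1 and 169.1 CPM at 0 h and at 204.3, 212.7 and 190.2 CPM at 4 h. In both genes all 4 h libraries lay above all 0 h libraries. The slopes were 0.10 ± 0.018 (adjusted p = 0.000126) for SDCBP and 0.070 ± 0.013 (adjusted p = 0.000221) for PDCD6IP, and both turned negative with GAPDH plus ACTB, at -0.039 and -0.069. Both genes have annotated pseudogenes, 3 for SDCBP and 2 for PDCD6IP, and how reads shared with such copies were counted is not given in the sources used here. SMPD3, which encodes the neutral sphingomyelinase nSMase2 of the ceramide route, had 3 to 13 counts per library and was not tested.

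VPS18, a core subunit of the HOPS and CORVET tethers that bring endosomes together, had the steepest fall of all members. It went from 50.4, 42.0 and 37.7 CPM at 0 h to 40.9, 38.2 and 33.7 at 1 h, 32.6, 28.4 and 20.6 at 2 h and 16.4, 13.2 and 9.08 at 4 h. Every replicate fell at each step, and replicate 3 had the lowest value at all 4 times. The slope was -0.44 ± 0.049 (adjusted p = 7.88e-07), 29.7% of the 0 h level was left at 4 h, and the fitted halving time was 2.25 h, or 1.71 h when scaled to GAPDH plus ACTB. Its 3'UTR of 634 nt held no match to either motif.

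The other core subunits moved otherwise. VPS16, which binds VPS33A in the same core, rose from 22.3, 21.6 and 23.9 CPM to 38.2, 32.3 and 34.1 CPM, a slope of 0.14 ± 0.023 (adjusted p = 3.38e-05; 0.0057 with GAPDH plus ACTB). VPS33A, the SNARE-binding subunit, had a slope of 0.0041 ± 0.018, and VPS11 one of 0.048 ± 0.025, neither past the threshold. The subunits particular to HOPS, VPS39 (0.092) and VPS41 (0.088), rose on the TMM scale and had slopes of -0.047 and -0.050 with GAPDH plus ACTB. The CORVET subunit VPS8 did not pass the threshold, at 0.021 ± 0.024. VPS33B, which works with VIPAS39 outside these tethers, fell from 20.1, 22.7 and 21.1 CPM to 14.5, 16.1 and 10.6 CPM, a slope of -0.16 ± 0.033 (adjusted p = 0.000453). The libraries at 1 h held 20.2, 21.4 and 21.3 CPM, within the range of 0 h, and those at 2 h held 18.3, 19.7 and 19.9 CPM, below all 0 h libraries. Its short 3'UTR of 302 nt held a Pumilio match starting at base 273. The end of the match and the letters after it spell AATAAA, and binding was not tested. The motif is in capitals.
VPS33B, Pumilio site: gaatgtcatTGTAAATAaagcctctg

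In the retromer, which returns cargo from endosomes, VPS29 and VPS26B rose (0.059 ± 0.017 and 0.080 ± 0.023) while VPS35, the scaffold, and VPS26A did not pass the threshold, at 0.018 ± 0.012 and 0.028 ± 0.017. All 4 slopes were negative with GAPDH plus ACTB. In the GARP and EARP tethers, which receive endosomal carriers at the Golgi and at recycling endosomes, VPS51 rose from 43.5, 42.0 and 42.8 CPM to 67.9, 63.3 and 70.9 CPM. Its slope was 0.16 ± 0.018 (adjusted p = 9e-07; 0.020 with GAPDH plus ACTB), and VPS51 has 19 annotated pseudogenes. VPS52 rose too, at 0.11 ± 0.016 (-0.027 with GAPDH plus ACTB). The other 3 subunits, VPS50, VPS53 and VPS54, had slopes from -0.040 to 0.019 and passed in neither direction, although VPS54 was lower at 4 h than at 0 h in the direct comparison (adjusted p = 0.0312).

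The VPS13 genes encode very large lipid-transfer proteins at membrane contacts, and their levels scattered at 0 h. VPS13A stood at 84.8, 58.3 and 83.2 CPM, VPS13B at 33.3, 22.0 and 26.6, VPS13C at 73.6, 42.9 and 59.9, and VPS13D at 77.1, 50.9 and 57.7. In all 4 genes replicate 2 was lowest at 0 h, and at 4 h VPS13A stood at 89.7, 101.7 and 112.0 CPM. VPS13A rose at 0.11 ± 0.028 (adjusted p = 0.00254) and VPS13B at 0.079 ± 0.031 (adjusted p = 0.035), the latter with slopes of -0.012, 0.18 and 0.072 in the 3 replicates and with its call lost without replicate 2 or without replicate 3. With GAPDH plus ACTB both slopes were negative. The transcripts span 13403 to 16357 nt, and whether their length bears on the scatter was not tested. Among the remaining VPS genes VPS72, which despite its name encodes a subunit of chromatin-remodelling complexes, fell late (53.8 ± 3.61 CPM at 0 h, 55.5 ± 3.13 at 2 h and 42.7 ± 2.54 at 4 h), and VPS45, a regulator of SNARE proteins, rose at 0.089 ± 0.025 (-0.050 with GAPDH plus ACTB).

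Of the 27 tetraspanin genes 20 were tested, of which 2 fell, 12 rose and 6 passed in neither direction. Among all tested genes 32.1% fell and 30.7% rose. The median slope of the tetraspanins was 0.10 beside 0.0093 for all genes. With GAPDH plus ACTB the tetraspanin median was -0.035 beside -0.13 for all genes. CD63 went from 319.6, 345.2 and 324.9 CPM at 0 h through 345.9, 346.4 and 327.4 at 1 h and 392.8, 409.8 and 394.9 at 2 h to 490.9, 484.5 and 461.9 at 4 h. It rose at 0.14 ± 0.013 (adjusted p = 1.44e-07), with nearly all of the rise after the first hour. CD81, a partner of integrins and immunoglobulin-family proteins, went from 150.2, 146.0 and 145.2 CPM to 228.6, 210.0 and 221.8 CPM, a slope of 0.14 ± 0.014 (adjusted p = 1.42e-07). CD151, which binds laminin-receptor integrins, went from 155.6, 144.1 and 137.5 CPM to 246.0, 240.0 and 218.8 CPM, a slope of 0.18 ± 0.018 (adjusted p = 3.18e-07). In these 3 genes the libraries of 0 h and 4 h were far apart, with 4 h at 1.45, 1.5 and 1.61 times the level of 0 h. With GAPDH plus ACTB the slopes of CD63 and CD81 were 0.0043 and 0.0064, past the threshold in neither case, and CD151 still rose (0.037, adjusted p = 0.0491).

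CD82, a suppressor of cell motility, rose from 14.6, 20.4 and 16.9 CPM to 22.2, 29.3 and 21.9 CPM, a slope of 0.13 ± 0.034 (adjusted p = 0.00336; -0.0083 with GAPDH plus ACTB). CD9 was low, at 5.41, 5.79 and 4.09 CPM at 0 h and 7.46, 6.29 and 3.70 CPM at 4 h. Its groups overlapped and its slope of 0.053 ± 0.063 did not pass the threshold (adjusted p = 0.479). TSPAN4, known from migrasomes, had the highest slope of all members: it stood at 24.9, 24.0 and 25.7 CPM at 0 h, 24.2, 24.8 and 26.1 at 1 h, 36.1, 28.2 and 27.9 at 2 h and 41.8, 40.6 and 46.7 at 4 h. The first hour showed no change beyond the spread, and the slope was 0.21 ± 0.026 (adjusted p = 2.57e-06; 0.074 with GAPDH plus ACTB, adjusted p = 0.0369).

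TSPAN13, second to CD63 in level, differed between replicates at every time. Replicate 1 held 440.0 CPM at 0 h and 541.3 at 4 h, against 578.4 and 708.0 in replicate 2 and 554.9 and 663.6 in replicate 3. The gene rose within each replicate by 0.08 per hour, but the groups of 0 h and 4 h overlapped, the adjusted p was 0.0285 without the block and 5.22e-06 with it, and the call was lost without replicate 2 or without replicate 3. TSPAN3, TSPAN6, TSPAN9 and TSPAN11 rose at 0.081 to 0.14 on the TMM scale, where TSPAN11, at 7.47 to 19.9 CPM, also lost its call without replicate 2 or 3. With GAPDH plus ACTB none of these 4 rose. TSPAN2, TSPAN8, TSPAN12, TSPAN18 and TSPAN31 passed in neither direction, and TSPAN2 fell with the replicate block (-0.083, adjusted p = 0.0331). TSPAN31 overlaps CDK4 on the opposite strand, and the strand setting of the counting is not given in the sources used here. TSPAN16 and TSPAN32 were listed at 0 in all libraries, and TSPAN1, TSPAN7 and TSPAN19 stayed below the count minimum.

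The TspanC8 tetraspanins escort the protease ADAM10 to the membrane, and they divided. TSPAN5 fell from 17.0, 18.1 and 21.1 CPM to 12.1, 12.1 and 10.6 CPM, a slope of -0.16 ± 0.036 (adjusted p = 0.00106), and TSPAN14 fell from 57.8, 58.8 and 66.3 CPM to 43.7, 43.8 and 44.7 CPM, a slope of -0.12 ± 0.020 (adjusted p = 5.27e-05). These were the only tetraspanins that fell. TSPAN17 rose at 0.11 ± 0.018 (adjusted p = 7.36e-05) and TSPAN15, at 3.28 to 7.28 CPM, at 0.15 ± 0.040 (adjusted p = 0.0033), although with GAPDH plus ACTB their slopes were -0.032 and 0.017. TSPAN10 and TSPAN33, the remaining members of the subfamily, were below the count minimum. ADAM10 itself had a slope of 0.037 (adjusted p = 0.048; negative with GAPDH plus ACTB).

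Pairs of paralogs were compared by their count ratio within each library, which no choice of scaling changes. Of 21 tested pairs 10 changed over time (exact permutation test of the slope over the 369600 arrangements of the 12 libraries, two-sided, adjusted over the 21 pairs). No share was computed for other gene pairs, and 32.1% of all tested genes fell and 30.7% rose. The VPS37 and VPS13 genes each enter several pairs, so the pairs are not independent. CHMP1A stood at 2.38 ± 0.11 times CHMP1B at 0 h (SD, n = 3) and at 4.63 ± 0.49 times at 4 h, a slope of 0.23 log2 units per hour (adjusted p = 0.00034). VPS37A over VPS37B went from 1.37 ± 0.036 to 2.61 ± 0.50 (slope 0.25, adjusted p = 0.00077), and VPS37A over VPS37C from 1.71 ± 0.052 to 3.01 ± 0.50 (slope 0.23, adjusted p = 0.00096), so that the replicate spread of the VPS37 ratios was widest at 4 h. TSPAN5 over TSPAN17 went from 0.357 ± 0.038 to 0.166 ± 0.0053 (slope -0.27, adjusted p = 0.00072), and VPS33A over VPS33B from 2.27 ± 0.13 to 3.60 ± 0.93 (slope 0.17, adjusted p = 0.00125). In all 5 pairs the ratio moved the same way in each of the 3 replicates.

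The other changed pairs were CHMP2A over CHMP2B (0.14), VPS4A over VPS4B (0.14), VPS13A over VPS13D (0.13), VPS13B over VPS13D (0.10) and VPS13A over VPS13C (0.099). VPS37B over VPS37C, the 2 steepest ESCRT genes, had a slope of -0.026 with replicate values from -0.068 to 0.027 and did not pass the threshold (adjusted p = 0.485). STAM over STAM2 (-0.052, adjusted p = 0.063) and CD9 over CD81 (-0.10, adjusted p = 0.205) did not pass it either. Permuting within replicate numbers raised the count of changed pairs to 15, by adding STAM over STAM2 (adjusted p = 0.0356), CD9 over CD81 (0.0102), CHMP4A over CHMP4B (0.00519), VPS13B over VPS13C (0.00483) and VPS26A over VPS26B (0.0356).

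**Figure D4:**
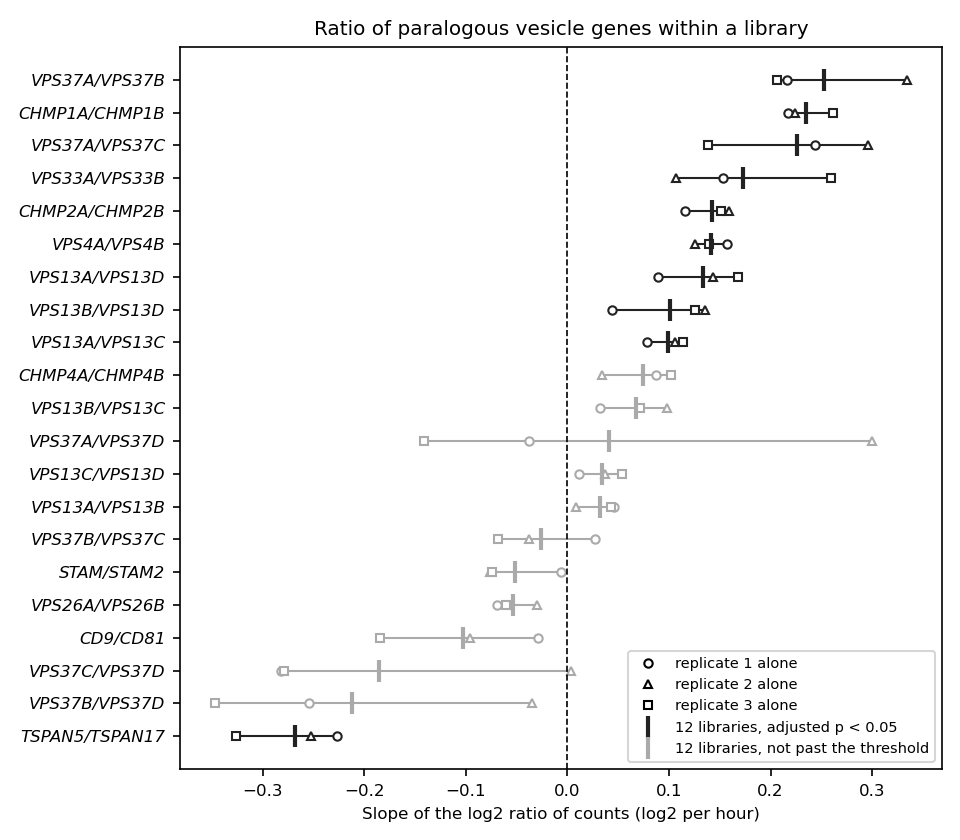
Slope of the log2 ratio of counts within a library, in log2 per hour, for the 21 tested paralog pairs. Upright bars are fits to all 12 libraries, dark where the pair passed the threshold (10 pairs), open markers are fits to a single replicate number and the horizontal line spans them; TSPAN5/TSPAN17 lies farthest left at -0.27 and VPS37A/VPS37B farthest right at 0.25.

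Genes that work with these proteins but do not carry the symbols were listed separately, and 34 of 41 were tested. Of these 10 fell and 16 rose, beside 32.1% and 30.7% of all genes, and their median slope was 0.056 (-0.082 with GAPDH plus ACTB). ARF6, a GTPase placed upstream of syntenin-dependent budding, fell most steeply, at -0.83. The ESCRT-III regulator IST1 fell at -0.21, the ESCRT-I subunits MVB12B and UBAP1 at -0.20 and -0.13, and the CORVET subunit TGFBRAP1 at -0.19. The third ESCRT-II subunit, SNF8, rose at 0.14, and MVB12A, the paralog of MVB12B, at 0.12. Tetraspanin partners rose as well, with IGSF8 at 0.22, ITGA3 at 0.14, ITGB1 at 0.13 and PTGFRN at 0.12. Blocking by replicate raised the partner rises to 18, with VTA1 (0.040, adjusted p = 0.0325), a cofactor of VPS4, and SDC4 (0.061, adjusted p = 0.00179), a syndecan bound by syntenin. None of the 16 partner rises held with GAPDH plus ACTB.

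The curves were tested for departure from a straight line on the log2 scale. None of the 67 genes passed with edgeR's test (lowest adjusted p = 0.198; 4 at an unadjusted p under 0.05), against 2.70% of all genes. Once replicates were blocked 9 passed, against 17.2% of all genes. Those 9 were VPS72, VPS45, TSPAN13, VPS37C, CHMP1B, VPS18, VPS37B, SDCBP and CD63. Their means differed in shape: CHMP1B lost most early (39.8, 31.4, 26.2 and 23.8 CPM at 0, 1, 2 and 4 h), VPS37C stayed level in the first hour (29.6, 29.7, 22.7 and 13.4 CPM), and VPS45 dipped before it rose (47.4, 42.6, 52 and 57.7 CPM).

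Among the members the median 3'UTR of the transcripts that fell was longer than that of those that rose. It was 1915 nt for the 12 that fell, 1165 nt for the 32 that rose and 1417 nt for 10815 tested genes with a 3'UTR, among which those that fell had 1900 nt and those that rose 875 nt. Across the 67 members 3'UTR length and slope had a Spearman rho of -0.26, beside -0.27 across all tested genes, both given as descriptions. The AU-rich motif was found in 4 of 12 that fell and 6 of 32 that rose. Among all 3'UTRs of any length it was in 37.6%, with 48.0% for genes that fell and 24.3% for those that rose. The Pumilio motif was found in 5 of 12 and 10 of 32, beside 31.7% of all, 45.8% of falls and 16.7% of rises. VPS18, VPS37B and CHMP1B, among the 4 steepest falls, held neither.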

How the data were processed

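Poly(A)-selected TruSeq stranded mRNA libraries were made from shA673-1c cells at 4 times with 3 replicates each. The deposited values are whole, unnormalized counts for each gene symbol, made by the authors. Their processing notes name FastQC, STAR and the build hg19; the counter, its version and its strand setting are not given in the sources used here. Sample labels gave times and replicate numbers.

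Genes averaging 10 counts or more were fitted in edgeR 4.0.16 (R 4.3.3) with TMM factors, glmQLFit and glmQLFTest, with hours as a numeric term and no block. The 4 h and 0 h libraries were compared with time as groups, and departure from a line was tested as time groups over the straight line. Benjamini-Hochberg adjustment covered all tested genes. Halving times are -1 divided by the slope. Paralog ratios used counts plus 0.5 and exact permutation with numpy 2.4.6. Transcript lengths, which set CPM per kb, and 3'UTRs came from GENCODE version 44, whose build differs from that of the files, so no coordinates are given. The scripts were tested on simulated data.

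Replicates of a time differed by more than sampling noise in all 12 pairs (chi-square per degree of freedom 3.20 to 8.65). Deviations from the time means correlated between libraries with the same replicate number in all 18 pairs (0.323 to 0.633), so the numbers pair the libraries, and blocked values are given where they change a call.

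The members follow from a rule on gene symbols, but that rule and the lists were written with earlier results of these data known. Genes described in full were the vesicle markers, the 8 steepest falls and 6 highest rises past the threshold that moved the same way in every replicate, and the 5 paralog pairs with the largest change in ratio among those past the threshold; others were added after their values were seen. Alternatives were 3 other scalings, DESeq2 1.42.0's Wald test, 2 count filters, the replicate block, and fits without each replicate or without the 0 h or 4 h libraries.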

Additional observations from a re-analysis of the deposited data

How the results depend on the processing

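Scaling to GAPDH plus ACTB changed the results most. With it 34 vesicle genes fell and 2 rose, beside 7729 and 112 of the 12032 tested genes. At 4 h 34 vesicle genes were lower and 0 higher than at 0 h, beside 7612 and 111 of all tested genes. Of the partner genes 18 fell and 0 rose (both counts of 0 from edgeR, also 0 at an unadjusted p under 0.05). Among the markers, steepest genes and paralog pairs chosen for full description and called under either scaling, it turned 7 slopes from positive to negative. These were CD82 (-0.0083), CHMP1A (-0.083), HGS (-0.00099), PDCD6IP (-0.069), SDCBP (-0.039), TSPAN17 (-0.032) and VPS33A (-0.13). Of the 32 rises of vesicle genes 4 became falls, CHMP1A (edgeR adjusted p = 0.000368) and PDCD6IP (0.00322) among them, and 26 lost their call. By its construction this scaling subtracts 1 value from all slopes. Without the 4 h libraries 5 vesicle genes fell and 15 rose, beside 2215 and 1447 of all genes, in a fit with fewer samples. The replicate block brought the genes departing from a straight line to 9 and changed the slope calls of CHMP4B, TSPAN2 and VPS4B, and of no other vesicle gene. Leaving out each replicate gave 11 to 12 falls and 29 to 30 rises, 12 to 12 lower and 27 to 29 higher at 4 h, 9 to 10 falls and 13 to 17 rises among partner genes, 0 to 0 departures from a line and 9 to 11 changed pairs. Without replicate 1 VPS26B and VPS45 lost their call, without replicate 2 TSPAN11, TSPAN13, VPS13B and VPS72, and without replicate 3 TSPAN11, TSPAN13, VPS13B and VPS29. DESeq2's size factors, DESeq2's Wald test and both count filters kept the same 12 falls and 32 rises. Counts were low for VPS37D, TSPAN8 and TSPAN18, which passed in neither direction in the main fit, and for the 10 untested genes. VPS37D did fall with GAPDH plus ACTB. Whether depth hid changes in these genes was not tested.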
